A study of Mus musculus with 12 samples.

Results

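Described here is the baseline transcriptome of untreated mock-transduced mouse kidney tubular epithelial cells, from 3 of the 12 libraries of the series. The members were chosen by label: every library whose title says mock-transduced, with no transforming growth factor β (TGFβ), and no other group was used. The cells, named im_TEC in the labels, are conditionally immortalised: they grow at 33 °C in the presence of 10 ng/mL interferon γ, when SV40 large T antigen is active. The medium held 10% fetal bovine serum, insulin at 5 ug/mL with transferrin and selenite, triiodothyronine at 40 pg/mL, hydrocortisone at 36 ng/mL and epidermal growth factor at 20 ng/mL. For 7 days before seeding the cells were kept at 37 °C without interferon γ, a step meant to lower the activity of the antigen. Cells carrying the mock construct were selected with puromycin. The wider study set these cells beside cells with an Nnmt expression construct, each kind with and without TGFβ. The labels give neither the nephron segment, the mouse strain or sex, nor whether the line is a single clone, and nothing says that the 3 replicates were separate cultures. The spread between them may therefore be technical.

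The kidney tubule is a chain of epithelial segments, each defined by the transporters in its membrane: the proximal tubule reclaims most of the filtrate with sodium-coupled carriers and endocytic receptors, the loop of Henle dilutes it, and the distal tubule and collecting duct make the final adjustments. Transcription factors such as Pax2 and Pax8 mark the renal epithelial lineage along the tubule, while Hnf4a drives the mature proximal programme. Tubule cells in culture are known for losing transporter expression and gaining cytoskeletal and matrix genes, and large T antigen binds the retinoblastoma and p53 proteins, which restrain the cell cycle.

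The 3 libraries held 5745122, 4733846 and 6072745 reads in genes. Replicate 1 stood apart from the others in the genes given with the spread at the end. Without it 12244 genes and 23 nephron segment markers were detected, against 11883 and 23 with it. Since a gene must pass in every library kept, leaving out any library can only keep or raise these counts. They were 12182 and 26 without replicate 2, and 12154 and 25 without replicate 3. A level is given as CPM, the reads of a gene per 1000000 reads in genes of that library, and the 3 values after a gene are always in the order of replicates 1, 2 and 3. Each read is a tag near the 3' end of a transcript, so levels were not divided by transcript length. A gene was called detected when it reached 1 CPM, or 4.73 to 6.07 reads, in each of the 3 libraries. It was called a trace when it was counted below that, and was at 0 when no library held a read. No read in 16551713 allows a level of up to 0.181 CPM, a limit that covers counting error alone, since reads amplified without molecular identifiers are not independent molecules.

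Of 55487 genes in the table, 11883 (21.4%) were detected, 5461 were traces and 38143 were at 0. Of the 21897 protein-coding genes, 10393 (47.5%) were detected, and these shares are the background for every gene list below. The median level was 30 CPM over the detected genes and 36.1 CPM over those that code for protein. Most detected genes, 6974, lay between 10 and 100 CPM, with 2758 below, 2099 between 100 and 1000 CPM, and 52 above. The 73 highest genes held 25% of all reads, and the 725 highest held 50%. The 50 most abundant genes held 23.87, 22.95 and 22.11% of reads, 22.98 ± 0.88% (mean ± SD, n = 3).

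**Figure D1:**
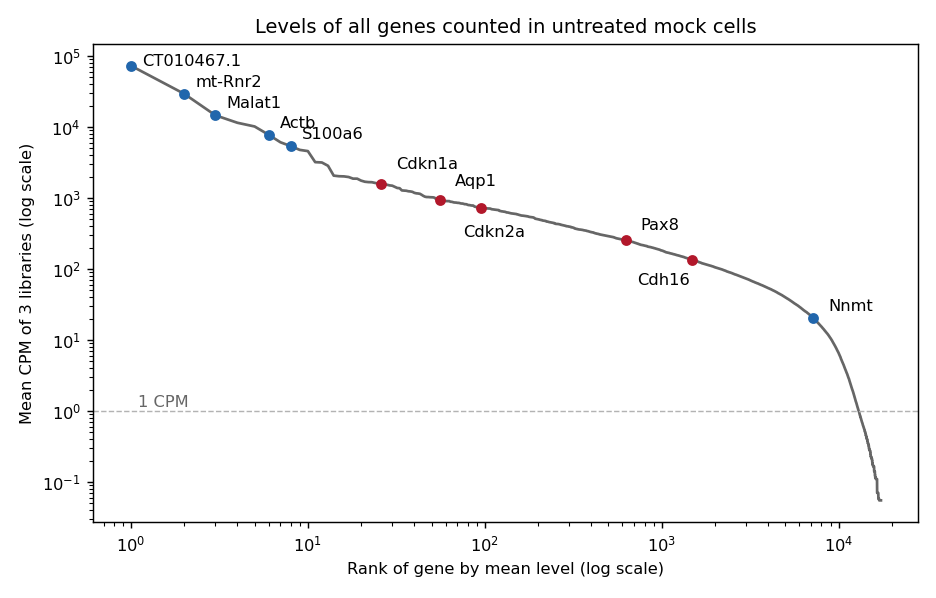
Mean level of each counted gene against its rank, both on log scales, with the 5 marker genes in red and other named genes in blue. The dashed line marks 1 CPM. Cdkn1a stands at rank 26, Aqp1 at 56, Cdkn2a at 95, Pax8 at 629 and Cdh16 at 1479.

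As counted, the most abundant transcripts came from ribosomal RNA, mitochondrial, cytoskeletal and secreted-protein genes. Reads that match more than 1 gene can go uncounted, so genes with close copies may rank too low or be missing here. No gene of a cytosolic ribosomal protein was among the 20 most abundant, and the part that such loss plays was not tested. CT010467.1, annotated as a ribosomal RNA gene, led at 91624, 69602 and 57952 CPM, and mt-Rnr2, the large mitochondrial ribosomal RNA, followed at 31665, 28557 and 27876 CPM. The first was highest in replicate 1 and lowest in replicate 3. Malat1, a nuclear long non-coding RNA, stood at 11186, 15559 and 17163 CPM, and there replicate 1 was the lowest. Among nuclear messengers Actb, cytoplasmic β-actin, led with 10266, 6909 and 6183 CPM. S100a6, a small calcium-binding protein, came next at 5110.1, 5513 and 5533 CPM, with all 3 libraries close together. Cald1, which encodes the actin-binding protein caldesmon, reached 2996, 3204 and 3408 CPM. The chaperone Hsp90ab1 and the mitochondrial protein Chchd2 had means of 2844 ± 284 and 2067 ± 95.8 CPM. By class, nuclear protein-coding genes held 82.0 ± 0.71% of reads, cytosolic ribosomal RNA 7.31 ± 1.71%, mitochondrial ribosomal RNA 4.08 ± 0.14%, mitochondrial messengers 2.75 ± 0.52%, long non-coding RNA 2.35 ± 0.32% and pseudogenes 0.97 ± 0.07%.

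Further down the 20 most abundant genes were a transcriptional repressor, a stress cytokine and 2 secreted regulators of matrix. Zbtb20, the repressor, stood at 2198, 1926 and 1956 CPM. Gdf15, a cytokine of the TGFβ family that is induced by stress, was highest in replicate 1 at 2694, 1697 and 1658 CPM. Timp2, an inhibitor of matrix metalloproteinases, was at 2370.0, 1757 and 1496 CPM, highest in replicate 1. Sparc, a secreted collagen-binding protein, was nearly level at 1840.3, 1902 and 1875 CPM. Serbp1, an RNA-binding protein, varied least of all 52 genes above 1000 CPM, at 1769.7, 1749.5 and 1752 CPM, a coefficient of variation (CV, the SD as a share of the mean) of 0.63%.

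Of the 132 nephron segment markers measured, 23 (17.4%) were detected, 32 were traces and 77 were at 0. Their median level was 0 CPM, and the background shares are 21.4% of all genes and 47.5% of protein-coding genes. In these bulk libraries fewer cells of a type and less RNA per cell cannot be told apart. For the proximal tubule, 9 of 38 transporters and endocytic receptors were detected. Aqp1, the water channel of the proximal tubule and thin descending limb, was by far the most abundant at 791, 964 and 1036 CPM. Lrp2, the endocytic receptor megalin, followed at 129, 152 and 159 CPM, and Slc4a4, the basolateral sodium-bicarbonate cotransporter, stood at 128, 95.5 and 116 CPM. Dab2, the adaptor that carries megalin into the cell, was at 94, 84.9 and 69 CPM. The organic anion exporter Abcc4 and the urate and drug exporter Abcg2 had means of 54.6 ± 6.14 and 41.4 ± 4.03 CPM. Slc6a18, an amino acid carrier of the late proximal tubule, was at 10.3, 9.51 and 14.2 CPM. Cubn, the partner receptor of megalin, was a trace at 0.522, 0 and 1.48 CPM.

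Of the 38 transporters and receptors, 20 were at 0. They include Slc34a1 and Slc34a3, which reclaim phosphate, Slc22a6 and Slc22a8, which take up organic anions, and Slc22a2, which takes up organic cations. Also at 0 were Slc5a12, a lactate carrier, and Slc9a3, the apical sodium-proton exchanger. The glucose carrier Slc5a2 was a trace, at 2.61, 1.06 and 0.659 CPM, while the basolateral glucose carrier Slc2a2 was detected at 4.00, 2.75 and 2.80 CPM. Of 43 proximal enzymes and other markers, 6 were detected. Mme, the brush-border peptidase neprilysin, stood at 169.7, 139 and 134 CPM. Ass1, which makes argininosuccinate for arginine synthesis, was at 54.7, 57.9 and 63.6 CPM, and Gatm, the first enzyme of creatine synthesis, at 11.5, 15.6 and 9.22 CPM. The gluconeogenesis genes G6pc, Pck1 and Fbp1 were at 0, as were the peptidases Ace and Dpp4 and the enzyme Miox, which breaks down inositol. Khk, the kinase that starts fructose breakdown, was detected at 5.92, 9.29 and 4.28 CPM.

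Later segments were represented by few genes. For the loop of Henle 1 of 15 was detected: Egf, the growth factor precursor of the distal tubule, at 12.4, 10.4 and 4.45 CPM. Umod, the most abundant urinary protein, was at 0, and Slc12a1, the loop's sodium-potassium-chloride cotransporter, was a trace at 0.870, 2.32 and 0.165 CPM. For the distal convoluted and connecting tubule 5 of 12 were detected. Wnk1, a kinase that controls chloride cotransporters and is expressed in many tissues, was high and even at 785, 784 and 818 CPM. Its relatives in that pathway, Stk39 and Wnk4, stood at 22.8, 15.4 and 18.8 CPM and at 14.8, 12.9 and 12.8 CPM. Trpm6, a magnesium channel, was at 20.4, 8.45 and 6.92 CPM and S100g, the calcium-binding protein calbindin-D9k, at 9.57, 2.96 and 2.47 CPM, and in both genes replicate 1 was above the others. Without replicate 1 the mean of Trpm6 was 7.68 CPM, against 11.9 CPM with it. Slc12a3, the thiazide-sensitive cotransporter that defines the segment, was at 0.

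The collecting duct lists held 1 detected gene each, of 11 principal-cell genes (9.1%) and of 13 intercalated-cell genes (7.7%). Npnt, the matrix ligand nephronectin, was the detected principal-cell gene, at 71.2, 54.9 and 47.8 CPM, while the water channels Aqp2, Aqp3 and Aqp4, the vasopressin receptor Avpr2 and the sodium channel subunits Scnn1b and Scnn1g were at 0. Car2, cytosolic carbonic anhydrase, was the detected intercalated-cell gene, at 31.7, 36.5 and 39.4 CPM. Foxi1, the factor that specifies intercalated cells, was at 0, as were the proton pump subunits Atp6v1b1 and Atp6v1g3.

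Reads that match several genes can be lost from each. The last 400 bases of each gene's longest transcript were therefore compared with all other transcripts, read on both strands, in 50-base words. Of protein-coding genes with no shared word 51.7% were detected, against 26.7% of those with 50% or more of their words shared. Among the detected genes of these groups the medians were 37.4 and 30.4 CPM. Whether read loss plays a part in the lower share was not tested. Of the 109 segment markers not detected, 5 had 50% or more of their words in another gene: Slc3a1, Slc5a2, Acsm3, Pdzk1 and Umod. The other 104 did not. Only exact words in annotated transcripts were compared, so a gene with no shared word can still have lost reads.

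**Figure D2:**
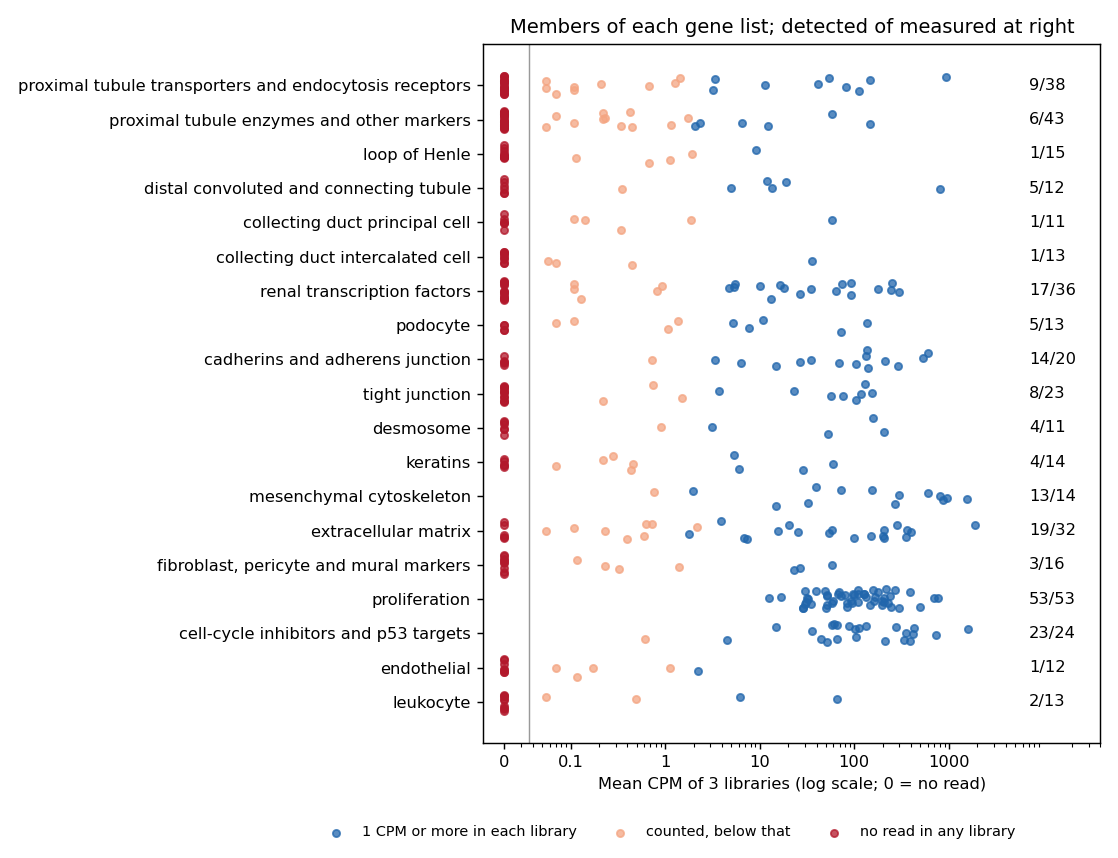
Mean level of every measured member of 19 gene lists, on a log scale, with genes at 0 drawn left of the line. Blue points are detected genes, orange points traces and red points genes with no read, and the numbers at right give detected of measured. All 53 proliferation genes lie at the right, while 77 of the 132 members of the 6 segment lists at the top are at 0.

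Of 36 renal transcription factors 17 (47.2%) were detected, with a median of 0.88 CPM, close to the 47.5% of protein-coding genes. Pax2 and Pax8, paired-box factors required for nephron formation, stood at 247, 327 and 321 CPM and 231, 272 and 255 CPM. Maf, a leucine zipper factor, stood at 199.6, 271 and 269 CPM. Tfcp2l1, a factor of the distal nephron and collecting duct, was at 168, 183 and 188 CPM. In Pax2 and Maf, replicate 1 lay below the other libraries. Emx2 and Tfap2a, factors of the ureteric bud and distal nephron, stood at 91, 89.6 and 95.5 CPM and at 87.4, 89.4 and 102 CPM, and Sox9, a factor of nephron progenitors and repairing tubules, at 86, 72.5 and 64.6 CPM. Gata3, a factor of the ureteric bud and collecting duct, was at 25.8, 37.6 and 41 CPM. The proximal factors Hnf4a and Hnf4g were at 0, and so were the progenitor factors Six2, Osr1, Eya1 and Cited1, the early nephron factor Lhx1 and the epithelial factor Grhl2. Hnf4a shares no word of its 3' end with another gene.

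The homeobox genes of the 4 Hox clusters set body position and were split by cluster. Of 11 Hoxa genes 8 were detected, and of 10 Hoxb genes 8. No gene of the Hoxc cluster was detected, with 8 reads over 9 genes in the 3 libraries together, and the 9 Hoxd genes held 0 reads. The summed level was 749.9, 597.8 and 662.6 CPM for Hoxa and 821.6, 725.6 and 714.2 CPM for Hoxb. Hoxb9 was the most abundant at 229, 254 and 273 CPM. Hoxa9, Hoxa7 and Hoxa10 had means of 195 ± 10.3, 169 ± 27.2 and 142 ± 49 CPM, and Hoxa10 was highest in replicate 1 at 198, 105 and 124 CPM. Hoxa11 and Hoxd11, the paralogs known to be needed for nephron formation, were both at 0. The last 400 bases of Hoxa3, Hoxa7, Hoxb2, Hoxb3 and Hoxa4 overlap non-coding transcripts of the same clusters over 50% or more of their words. With the strand setting not given, reads of these genes and of their partners cannot be told apart.

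**Figure D3:**
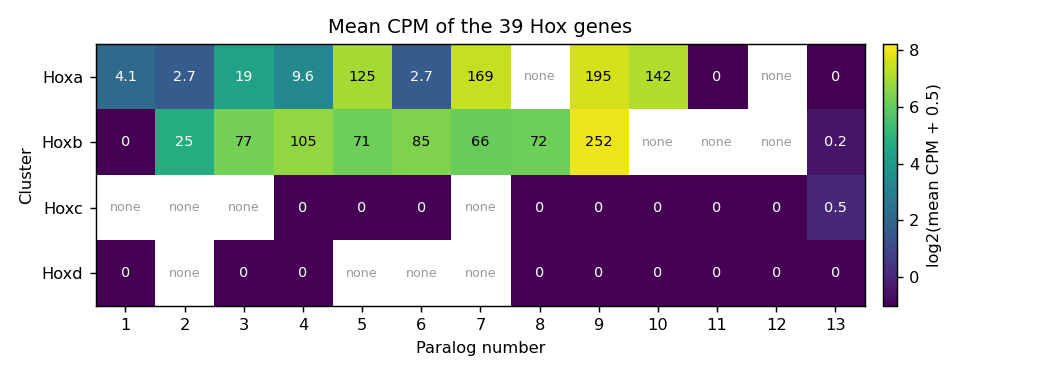
Mean level of the 39 Hox genes by cluster (rows) and paralog number (columns), with the mean CPM of 3 libraries printed and coloured on a log2 scale, and "none" where the mouse has no such gene in the table. Levels above 1 CPM lie in the Hoxa and Hoxb rows, and Hoxb9 is highest.

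Epithelial junctions were incomplete, with catenins and several cadherins present and the classical epithelial cadherin at 0. Among cadherins and adherens junction genes 14 of 20 were detected, with a median of 30.7 CPM. Cdh6, a cadherin of the developing and proximal tubule, was the highest at 598, 598 and 619 CPM. Cdh16, the kidney-specific cadherin, stood at 155, 124 and 127 CPM. Cdh2, neural cadherin, which proximal tubule cells also carry, was at 131, 128 and 141 CPM. The catenins Ctnnb1, Ctnna1 and Ctnnd1, which link cadherins to actin, had means of 534 ± 42.1, 286 ± 18 and 141 ± 25.7 CPM. The last 400 bases of Ctnnb1 lie wholly within a transcript of Ulk4, read on either strand. Cdh1, epithelial cadherin, and Epcam, the epithelial adhesion molecule, were at 0 in all 3 libraries, and neither shares any word of its 3' end.

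Of 23 tight junction genes 8 were detected and 12 were at 0. Tjp1, a scaffold, stood at 72.4, 49.6 and 46.9 CPM and was highest in replicate 1. Cgnl1 (paracingulin) and F11r (an adhesion molecule) had means of 131 ± 6.91 and 117 ± 13.5 CPM, and the barrier claudin Cldn1 was at 108, 111 and 94.2 CPM. Ocln (occludin) and the claudins Cldn3, Cldn4, Cldn7 and Cldn8 were at 0. Cldn2, the cation pore of the proximal tubule, was detected at 1.39, 5.07 and 4.61 CPM. Of 11 desmosome genes 4 were detected. Perp, a membrane protein of desmosomes and a p53 target, stood at 209.9, 198 and 204 CPM and Pkp2, a plaque protein, at 40.9, 49.9 and 65.9 CPM, while Dsp (desmoplakin) and Dsg2 were at 0. Jup, the plaque protein plakoglobin, was at 159, 80.5 and 69.7 CPM, with replicate 1 above the others.

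Keratins, the intermediate filaments of epithelia, were low, with 4 of 14 detected and a median of 0.25 CPM. Krt8 stood at 51.7, 65.3 and 62.7 CPM and Krt20 at 29.2, 28.1 and 28 CPM. Krt18, the usual partner of Krt8, was a trace with a read in replicate 2 alone, and 1.4% of its 3' words are shared. Krt19 was a trace and Krt5 was seen in 2 libraries at 1.04, 0 and 0.329 CPM. Of 24 epithelial regulators and polarity genes 10 were detected. The polarity kinase Prkci and the scaffolds Mpp5 and Pard3 had means of 413 ± 77.2, 147 ± 5.96 and 104 ± 20.3 CPM. Esrp1, an epithelial splicing factor, Ovol1 and Ovol2, repressors of mesenchymal genes, Rab25 and St14 were at 0, and Esrp2 was a trace.

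Mesenchymal cytoskeletal genes were present at high levels, 13 of 14 detected with a median of 211 CPM. Tpm1, a tropomyosin, led at 1619.6, 1528 and 1464 CPM. Vim, the intermediate filament vimentin, stood at 898, 838 and 861 CPM, and Lgals1, a galectin, at 888, 761 and 756 CPM. Actn1, an actin crosslinker, was at 861, 1051 and 972 CPM. Smooth muscle proteins were lower: Tagln at 78, 63.8 and 75.7 CPM, Cnn1 at 36.4, 35.5 and 25.9 CPM and Acta2, the α-actin of myofibroblasts, at 11.8, 16.3 and 16.8 CPM. S100a4, a calcium-binding protein often used as a fibroblast marker, stood at 257, 313 and 324 CPM, with 54.4% of its 3' words shared with Gm42674. Des, desmin, was a trace.

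Matrix genes were mixed, with 19 of 32 detected and a median of 7.1 CPM. Besides Sparc, the adhesive glycoproteins Fn1, Thbs1 and Tnc had means of 395 ± 36.1, 360.1 ± 31.5 and 352 ± 45.7 CPM. Basement membrane genes included Col18a1 at 322, 267 and 267 CPM, the proteoglycan Hspg2 at 243, 171 and 201 CPM and the laminin chain Lamb1 at 198, 195 and 211 CPM. The major basement membrane collagens Col4a1 and Col4a2 were far lower, at 1.39, 1.69 and 2.31 CPM and at 3.13, 0.634 and 2.80 CPM. The fibrillar collagen chain Col1a1 was at 1.39, 5.49 and 4.78 CPM and its partner Col1a2 was a trace, while Col3a1 and the proteoglycan Lum were at 0. Of 9 transcription factors of epithelial to mesenchymal transition 5 were detected: Zeb1 at 52.9, 53.4 and 52.7 CPM, Twist1 at 33.2, 23 and 30.3 CPM, Zeb2, Twist2 and Snai1, with Snai1 at 1.39, 7.18 and 2.63 CPM highest in replicate 2. Snai2 was a trace.

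Markers of other cell types were mostly missing. Of 16 fibroblast, pericyte and mural markers 3 were detected, Mcam, Foxd1 and Nt5e, with means of 57.9 ± 15.2, 26.8 ± 7.41 and 23.1 ± 3.86 CPM, while Pdgfra and Pdgfrb were traces and Thy1, Cspg4 and Rgs5 were at 0. Of 13 podocyte markers 5 were detected, led by Synpo at 142, 142 and 125 CPM and Podxl at 67, 72.5 and 79.4 CPM, both of which tubule or other cells also express, and the slit diaphragm gene Nphs1 was at 0. Of 12 endothelial markers 1 was detected, Egfl7 at 4.00, 1.06 and 1.65 CPM, with Pecam1, Cdh5 and Kdr at 0. Of 13 leukocyte markers Csf1r and Cd68 were detected and Ptprc, the pan-leukocyte antigen, was at 0. Csf1r read 50.1, 74.6 and 73.1 CPM, but the last 400 bases of its transcript lie wholly within a transcript of Hmgxb3, read on either strand. With the strand setting not given, reads of these genes cannot be told apart.

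Every one of the 53 proliferation genes was detected, with a median of 95.9 CPM. Mcm7 and Top2a led at 845, 756 and 695 CPM and at 639.7, 738 and 699 CPM. Mcm7 is a subunit of the replicative helicase and was highest in replicate 1, and Top2a is the topoisomerase that resolves chromosomes in mitosis. Mki67, the antigen most used to mark cycling cells, stood at 199.8, 217 and 205 CPM, and Cdk1, the mitotic kinase, at 147, 229 and 237 CPM, where replicate 1 lay below the others. The mitotic proteins Cenpe and Cenpf reached 484, 479 and 513 CPM and 338, 378 and 443 CPM. Rrm1, the large subunit of ribonucleotide reductase, which makes deoxynucleotides, stood at 217, 274 and 241 CPM. The lowest of the list, Mybl2, was still at 11, 11.2 and 15.5 CPM.

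The promoters of these genes are described because all the genes of the list were expressed. In the 250 bases before the start, from RefSeq (GRCm38.p6), 41 of the 53 genes had an entry. The letters CCAAT, the CCAAT box, read on either strand, lay in 31 of the 41 (75.6%), against 37.5% of 27025 genes and 41.2% of 8298 detected protein-coding genes. The GC box, GGGCGG on either strand, lay in 29 (70.7%), against 67.2% of detected protein-coding genes. The E2F site letters TTTCCCGC, on either strand, lay in 4 (9.8%), against 2.2%. The TATA box letters TATAAA, on either strand, lay in 0 of 41, against 7.2%. The other gene lists were searched too, and a raised CCAAT share was not particular to proliferation genes. Among lists with 5 or more entries, it ran from 12.5% (keratins, 1 of 8) to 80.0% (factors of epithelial to mesenchymal transition, 4 of 5). In Hox genes it was 63.6% (14 of 22). The GC box and the E2F letters can overlap when read on opposite strands, and a match is a description of the letters alone. The 100 bases before the start are shown for the 4 most abundant genes with a single listed start and a CCAAT box in that stretch, 5′ to 3′ on the gene's strand, with CCAAT or its reverse complement in capitals: Top2a at chr11:99024190-99024289 on the minus strand, Cenpe at chr3:135212463-135212562 on the plus strand, Cenpf at chr1:189688087-189688186 on the minus strand and Rrm1 at chr7:102441595-102441694 on the plus strand.
Top2a: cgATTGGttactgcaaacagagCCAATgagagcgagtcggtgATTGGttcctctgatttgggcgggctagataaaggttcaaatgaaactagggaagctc
Cenpe: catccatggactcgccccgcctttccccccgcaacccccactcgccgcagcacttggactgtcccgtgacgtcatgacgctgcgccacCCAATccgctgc
Cenpf: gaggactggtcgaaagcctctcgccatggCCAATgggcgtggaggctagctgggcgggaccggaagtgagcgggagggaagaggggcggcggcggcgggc
Rrm1: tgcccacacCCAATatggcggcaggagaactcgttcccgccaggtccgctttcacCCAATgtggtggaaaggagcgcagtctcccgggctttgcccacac
Top2a held 3 matches in this stretch, the farthest beginning 98 bases and the next 78 bases before the start. Rrm1 held 2, beginning 91 and 45 bases before it. Cenpe and Cenpf held 1 each, at 12 and 71 bases.

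Cell-cycle inhibitors were detected in the same libraries, with 23 of 24 inhibitors and p53 targets detected and a median of 102 CPM. Cdkn1a, which encodes the p53-induced inhibitor p21, was the highest at 1143, 1814 and 1779 CPM, and replicate 1 was the lowest. Cdkn2a stood at 631, 694 and 855 CPM, highest in replicate 3. Cdkn1b, the inhibitor p27, was at 174, 303 and 345 CPM, with replicate 1 again below the others. Cdkn2b, Cdkn2c and Cdkn2d, relatives of Cdkn2a, had means of 35.4 ± 2.93, 88.7 ± 12.1 and 65.4 ± 9.24 CPM, and Cdkn1c was a trace. The p53 targets Mdm2, Ccng1 and Zmat3 had means of 419.6 ± 1.24, 386 ± 24.7 and 432 ± 40.1 CPM, and Trp53 itself was at 61.4, 67.2 and 55.5 CPM. Lmnb1, a nuclear lamina gene whose loss marks senescent cells, was at 291, 402 and 369 CPM.

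Cdkn2a makes 2 unrelated proteins from separate first exons: the downstream start gives the kinase inhibitor p16Ink4a and the upstream start gives p19Arf, which stabilises p53. The 2 starts in RefSeq (GRCm38.p6) lie 12427 bases apart on the minus strand, and both products end in the same 3' exons, so a tag at the 3' end counts them together. The 100 bases before each start are shown because these stretches tell the products apart, with the E2F letters TTTCCCGC in capitals where present: chr4:89282193-89282292 for the downstream start and chr4:89294620-89294719 for the upstream start.
Cdkn2a downstream start: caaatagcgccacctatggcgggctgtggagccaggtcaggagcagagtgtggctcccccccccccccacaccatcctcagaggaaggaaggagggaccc
Cdkn2a upstream start: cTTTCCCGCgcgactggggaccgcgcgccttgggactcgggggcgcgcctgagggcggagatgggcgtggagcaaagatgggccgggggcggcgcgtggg
The capitals appear in the upstream stretch alone, beginning 99 bases before the start. How the count divides between the products was not analysed here.

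**Figure D4:**
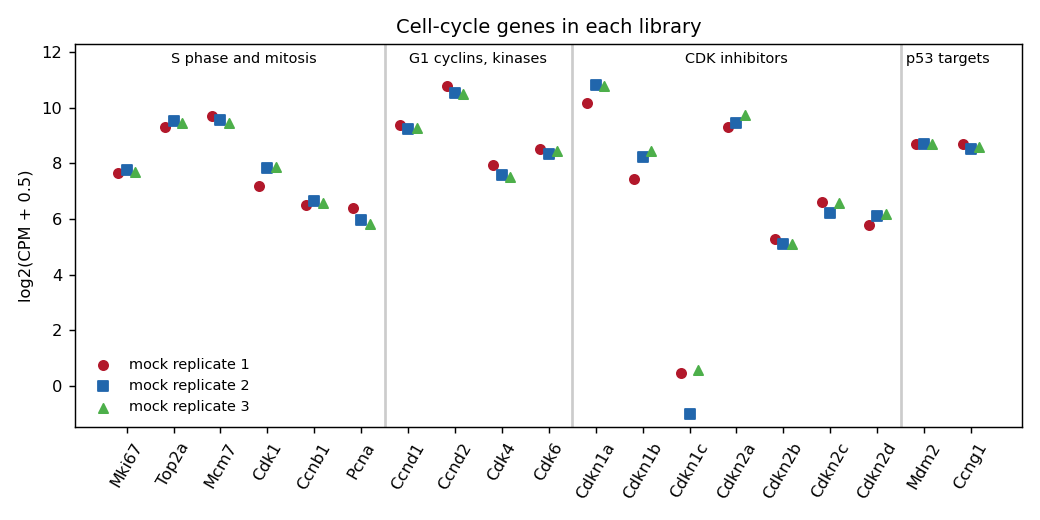
Level of 19 cell-cycle genes in each library as log2(CPM + 0.5), with circles, squares and triangles for mock replicates 1, 2 and 3 and vertical lines between gene groups. Cdkn1a and Ccnd2 are the highest and Cdkn1c is the lowest, and the circle lies lowest for Cdkn1a, Cdkn1b and Cdk1.

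Of 11 genes that act at the start of the cycle, cyclins, kinases and Myc genes together with the restraining retinoblastoma family, 10 were detected, with a median of 51.9 CPM. Ccnd2 and Ccnd1, the D-type cyclins, stood at 1759.6, 1484 and 1439.9 CPM and at 665, 606 and 625 CPM. Their kinases Cdk6 and Cdk4 stood at 363, 324 and 352 CPM and at 244, 190.3 and 181 CPM. All 3' words of Ccnd1 and of Cdk4 occur in other transcripts, so these levels are uncertain. For Ccnd1 the partner is LTO1. For Cdk4, 67 genes share at least some of the words, with Tspan31 first among them. The restraining genes Rb1, Rbl1 and Rbl2 had means of 51.9 ± 2.93, 46.5 ± 3.36 and 37.3 ± 6.55 CPM, and 84.6% of the 3' words of Rbl2 are shared with Aktip. Myc, a growth-promoting transcription factor, was at 23.8, 22.4 and 22.1 CPM, and Mycl was at 0.

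Injury and repair genes of the tubule were mostly detected, 22 of 24 with a median of 64.3 CPM. After S100a6 and Timp2, Sox4, a progenitor factor, stood at 1039, 961 and 1079 CPM, with 61.0% of its 3' words shared with another gene. Spp1, the secreted phosphoprotein osteopontin, was at 452, 442 and 455 CPM and Cd44, its receptor, at 284, 275 and 274 CPM. Havcr1, the injury marker kidney injury molecule, was at 14.3, 20.5 and 22.1 CPM and Lcn2, a secreted injury marker, at 5.92, 4.01 and 5.60 CPM. Vcam1, an adhesion molecule of unrepaired tubules, was at 65.8, 77.3 and 71.1 CPM. Fgb and Mmp7 were at 0.

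Receptors for the factors in the medium and for TGFβ were present, 17 of 19 detected with a median of 21.5 CPM. Igf1r, which binds insulin-like growth factors and insulin weakly, was the highest at 671, 658 and 598 CPM. Egfr, the receptor of epidermal growth factor, stood at 90.5, 80.5 and 79.7 CPM. Tfrc, the transferrin receptor, was at 168, 185 and 184 CPM, Nr3c1, the glucocorticoid receptor, at 105, 115 and 85.6 CPM and Insr, the insulin receptor, at 11.8, 15.2 and 14.8 CPM. Both subunits of the interferon γ receptor were detected, Ifngr1 at 99.9, 79 and 80.5 CPM and Ifngr2 at 33.4, 49.6 and 44.3 CPM. Tgfbr2 and Tgfbr1, the receptor pair for TGFβ, stood at 168, 207 and 209 CPM and at 12.4, 12.9 and 17.6 CPM. Acvrl1 was at 0.

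Interferon and antigen presentation genes were detected in 22 of 26 cases, after 7 days without interferon γ. B2m, the light chain of class I molecules, stood at 1833, 1476 and 1476 CPM, and the class I chains H2-K1 and H2-D1 at 859.9, 673 and 633 CPM and at 444, 435 and 430.4 CPM. The interferon factor Irf1 stood at 101, 124 and 135 CPM and the chemokine Cxcl10 at 31.2, 31.5 and 31.5 CPM. Mx1 and Cxcl9 were at 0, and the class II activator Ciita was a trace.

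Metabolic and ciliary genes were widely present. Of 17 glycolysis genes 15 were detected, led by Pkm, the last enzyme of the pathway, at 538, 558 and 515 CPM. Gapdh, an enzyme of every cell, read 0.522, 1.69 and 0.494 CPM. Its 3' words are 50.4% shared with 63 other genes, and the part that sharing plays in the low count was not tested. Of the 13 mitochondrial messengers 7 were detected. Of those with no shared word, mt-Nd4, mt-Cytb and mt-Nd1 had means of 10179 ± 1251, 6096 ± 1094 and 4763 ± 277 CPM. Besides mt-Co1, 5 had 98% or more of their words shared, mt-Co2, mt-Atp6, mt-Co3, mt-Nd3 and mt-Nd4l, and these were at 0 or traces. The wholly shared mt-Co1 had a mean of 723 CPM, and mt-Nd6 and mt-Atp8, with no shared word, were at 17.5 and 0 CPM.

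Of 18 genes, most of them of fatty acid oxidation, 15 were detected, with a median of 39.4 CPM. The few of gluconeogenesis in this list were Pck2 at 43, 49.4 and 47.3 CPM, Pcx at 5.22, 2.96 and 8.40 CPM and Fbp2 at 0, beside G6pc, Pck1 and Fbp1, which were counted with the proximal enzymes and were also at 0. Hadha, a subunit of the trifunctional β-oxidation protein, led at 208, 141 and 157 CPM and Ppargc1a, a coactivator of mitochondrial genes, stood at 111, 177 and 153 CPM. Of 15 genes of the primary cilium and polycystic kidney disease 14 were detected. Pkd2 and Pkhd1, both mutated in polycystic disease, stood at 194, 166 and 188 CPM and at 106, 152 and 132 CPM. Pkd1 was at 39.9, 39.7 and 39 CPM, and its 3' end lies within a transcript of Tsc2, read on either strand. Nnmt, the nicotinamide methyltransferase that the study overexpressed in other libraries, was at 24.2, 17.7 and 18.4 CPM in these mock cells, and its relative Inmt at 40, 23 and 35.6 CPM.

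Spread between the 3 libraries was summarised by the dispersion, the squared variation beyond counting error, which was 0.0289 over 11273 genes in edgeR, a biological CV of 17.01%. It narrowed with level: the median CV was 32.3% for genes of 1 to 10 CPM, 14.8% from 10 to 100, 9.0% from 100 to 1000 and 7.7% above, where counting error alone gives 19.3, 7.5, 3.3 and 1.1%. Replicate 1 stood apart. Of 9125 genes at 10 CPM or more, 91 lay over 2-fold from the middle value of the 3 in replicate 1 (18 above and 73 below), against 16 in replicate 2 and 10 in replicate 3. The correlation of log2 levels across genes, which are not independent replicates, was 0.963 for replicate 1 with 2, 0.963 for 1 with 3 and 0.979 for 2 with 3. Without replicate 1 the dispersion was 0.0141, against 0.0368 without replicate 2 and 0.0349 without replicate 3.

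Some abundant genes showed the difference. mt-Nd2, a subunit of respiratory complex I, was lower in replicate 1 at 2086, 5509 and 6143 CPM, as was mt-Nd5 at 548, 1405 and 1484 CPM. Among the 10 genes with the widest spread at 10 CPM or more, Kctd11, an adaptor of ubiquitin ligases, read 2.96, 12 and 17.1 CPM, Bcl2l12 read 3.31, 15.6 and 15.5 CPM and Zfp346 read 5.40, 17.7 and 22.1 CPM, with replicate 1 lowest in each. Cirbp, an RNA-binding protein induced by cold, ran the other way at 21.4, 5.28 and 6.59 CPM, and so did Elp4, a subunit of the elongator complex, at 25.4, 8.87 and 5.60 CPM. Gm8822 and Zfp384 were also highest in replicate 1, at 20.5, 5.49 and 4.45 CPM and at 26.3, 6.13 and 10.7 CPM. With Cirbp, Elp4 and Trpm6 they are the 5 named genes at 10 CPM or more whose mean fell by over 1.5 times without that replicate. Their means were then 5.93 CPM for Cirbp, 7.24 for Elp4, 4.97 for Gm8822, 7.68 for Trpm6 and 8.41 for Zfp384. Genes lowest in replicate 1 could not enter this count, since leaving out 1 of 3 libraries raises a mean by at most 1.5 times. The share of cytosolic ribosomal RNA was also highest in replicate 1, at 9.16, 6.96 and 5.80% in the 3 libraries. That of mitochondrial ribosomal RNA was lowest there, at 3.94, 4.22 and 4.10%. The part of either share in these differences was not tested.

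**Figure D5:**
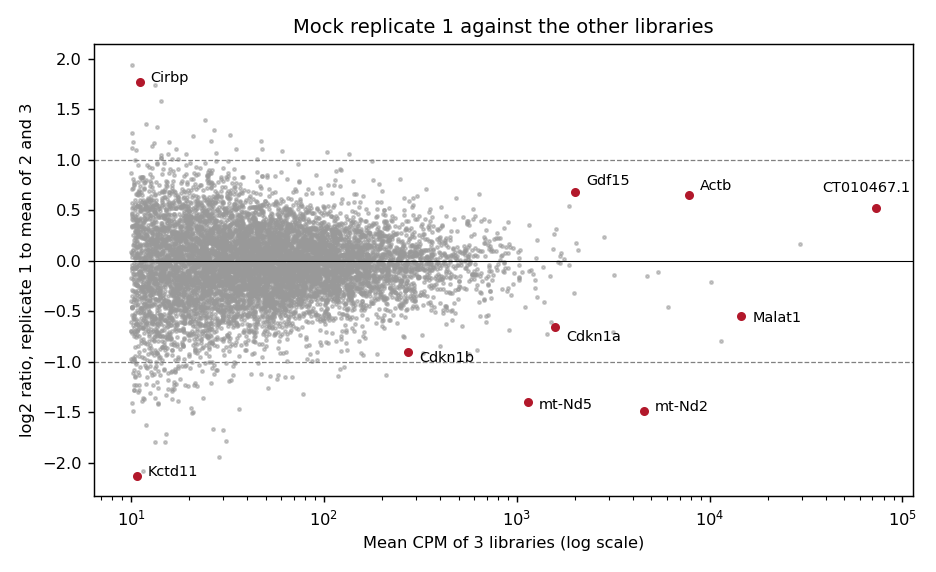
For each gene with a mean of 10 CPM or more, the log2 ratio of replicate 1 to the mean of replicates 2 and 3 (with 0.5 CPM added) against the mean level on a log scale; dashed lines mark 2-fold. Named genes are in red: mt-Nd2, mt-Nd5 and Kctd11 lie below the lower line and Cirbp above the upper one.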

How the data were processed

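The authors deposited unnormalised read counts for every gene in a table of the whole series. Per the labels' protocols, RNA (100 ng) was made into 3' tag libraries (QuantSeq forward). STAR and HTSeq appear in the submitters' processing notes, which give no version for either, beside GRCh38, a human build, although the identifiers are mouse Ensembl. For the mouse build, annotation and strand the entry is "not given in the sources used here", so no coordinates are taken from the file. Reads outside genes (27.6 to 28.2% of a library) and ambiguous reads (0.603 to 0.632%) stayed out of totals. Symbols came from a GENCODE M21 table, which matched 55141 of 55487 identifiers (99.4%). Tmem27 had no match, and Aldoa, whose symbol 2 identifiers share, was left out.

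CPM were computed from the counts with Python 3.11.15 and pandas 2.3.3. There is 1 group and no comparison, so no p-value is given. Dispersion came from edgeR 4.0.16 (R 4.3.3), TMM scaling, genes kept by filterByExpr (minimum count 10), and its code was tested on simulated data. Alternatives were other thresholds, scalings (with DESeq2 1.42.0), totals, and each library left out. Leaving out the most abundant ribosomal RNA gene was chosen after seeing the data. The named genes are the 20 most abundant, the 5 markers, up to 8 of each list at the top and up to 8 at 0 or trace in list order, and the 10 of widest spread. Some genes that this rule covers are left out of the text. Others named beside them were chosen after their values were seen. The members and lists were chosen with earlier results of these data known.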

Additional observations from a re-analysis of the deposited data

How the results depend on the processing

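The number of detected genes stayed between 9827 (at 5 CPM in each library) and 12991 (mean level at or above 1 CPM), and between 12154 and 12244 with a library left out. Segment markers detected ranged from 16 (5 CPM) to 30 (mean level), and from 23 to 26 with a library left out. The share of the 50 most abundant genes was 18.13% without mitochondrial transcripts and 17.01% without the most abundant ribosomal RNA gene, a setting chosen after seeing the data, and from 22.54 to 23.41% with a library left out. The dispersion was 0.04204 with no filter on low counts, 0.02404 for genes of 10 CPM or more and 0.01464 as the median of gene-wise values in DESeq2, and ranged from 0.01408 (without replicate 1) to 0.03682 (without replicate 2). The filter settings take in other genes by construction, and the cause of the other differences was not tested. Of the 382 named genes, 5 at 10 CPM or more (Cirbp, Elp4, Gm8822, Trpm6 and Zfp384) fell by over 1.5 times without replicate 1. Under TMM scaling, or without replicate 2 or 3, 0 moved that far. Leaving out 1 of 3 libraries can raise a mean by at most 1.5 times. With a library left out, the count could therefore find only genes highest in that library, and it misses those lowest in it. All of the 5 but Trpm6 were named for their wide spread. No paired analysis was possible because the values come from 1 group and from no test. Depth limits what is called absent: 3 reads, the limit that a count of 0 allows, are 0.494 to 0.634 CPM in single libraries.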

Other observations

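Gene families outside the lists were counted after their values were seen, so these values are descriptive. The background is again the 47.5% of protein-coding genes that were detected. The shares of solute carriers (43.9%) and integrin subunits (46.2%) were close to it. Those of collagen chains, Wnt ligands, aquaporins and Fgf ligands were lower, and that of Frizzled receptors was higher. These differences were not tested. Of 342 solute carriers (Slc genes) 150 were detected, led by the taurine carrier Slc6a6 at 1627, 1728 and 1541 CPM, the amino acid carrier Slc38a2 at 523, 496 and 456 CPM and Slc3a2, the heavy chain of amino acid exchangers, at 495, 476 and 473 CPM. Slc7a5, a partner of that chain, was highest in replicate 1 at 266, 148 and 119 CPM. Of 26 integrin subunits 12 were detected, with Itgb1 at 763, 688 and 685 CPM and Itga3, a laminin receptor chain of the tubule, at 307, 247 and 247 CPM. Collagen chains were detected in 11 of 44 cases, and Col4a5 stood at 161, 150.0 and 126 CPM beside Col4a1 at 1.80 ± 0.466 CPM. Of 19 Wnt ligands 5 were detected, Wnt7b the highest at 116, 120.0 and 108 CPM, and of 10 Frizzled receptors 7 were detected. Sox11, a factor of embryonic progenitors, was the second Sox gene after Sox4, at 401, 334 and 300.0 CPM. Bmp4 and Bmp6, ligands of the TGFβ family, stood at 190.4, 167 and 198 CPM and at 77.3, 95.7 and 100.3 CPM, Gja1, connexin 43, at 59, 85.3 and 61.8 CPM, and Aqp5 was the second aquaporin detected of 11, at 24.9, 16.5 and 17.9 CPM. Of 22 Fgf ligands Fgf18 was detected, at 9.40, 14.2 and 14.8 CPM.

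No gene of the Y chromosome was detected. The 3 libraries together held 18 reads over its 1562 genes, and Ddx3y, Eif2s3y, Uty and Kdm5d were at 0. Xist, the transcript that silences an X chromosome in female cells, held 1 read. Of the 2585 genes of the X chromosome 343 were detected, a lower share than the 21.4% of all genes. Gene types were not separated in this count, though detection differs by type, with 47.5% of protein-coding genes detected.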
